A study of Mus musculus with 8 samples.

Results

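The genes described here are 10 regulators of AU-rich mRNA decay and stability, chosen by name from the 35715 genes named in the array files: Zfp36, Zfp36l1, Zfp36l2, Zc3h12a, Arid5a, Arid5b, Elavl1, Hnrnpd, Khsrp and Tia1. They were measured by 14 probes of 55681, of which all 14 were well above background on all 8 arrays and none was saturated. The cells were NIH3T3, an immortalised line of mouse embryonic fibroblasts, taken through serum starvation, serum stimulation and treatment with cordycepin, which is 3′-deoxyadenosine, an adenosine analogue that stops the growth of a poly(A) tail. Plates were kept in 0.5% newborn bovine serum for 24 h. One group of 3 arrays came from cells given 20 µM cordycepin in DMSO and, 60 min later, serum for 30 min (cordycepin plus serum), and another group of 3 from cells given 0.1% DMSO and then serum in the same way (serum). A further 2 arrays came from starved control cells that received no serum (no serum). The labels of these cells give no vehicle, so a difference between serum and no serum cannot be told apart from one of DMSO if they received none. No array held cells given cordycepin without serum, so cordycepin was compared only in stimulated cells. Every group was the same cell line, and the labels do not say whether replicates were separate cultures, so the p-values measure the spread between these arrays, which may be technical.

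AU-rich elements are stretches with repeated AUUUA motifs in the 3′ ends of many short-lived mRNAs, including those of immediate early genes, cytokines and growth factors. Zfp36 (tristetraprolin) and its relatives Zfp36l1 and Zfp36l2 bind these elements through CCCH zinc fingers and bring in the deadenylases that shorten the poly(A) tail, so that the mRNA is destroyed. Other members act against them or beside them: Elavl1 (HuR) protects AU-rich mRNAs, Hnrnpd (AUF1) and Khsrp (KSRP) mostly favour their decay, Tia1 holds back their translation, Zc3h12a (Regnase-1) cuts stem-loops in inflammatory mRNAs, and Arid5a binds and stabilises some of the mRNAs that Zc3h12a cuts. Zfp36 is itself an immediate early gene of fibroblasts, and its own mRNA carries AU-rich elements.

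The 3 members that rose with serum are shown here by the 250 bases upstream of their RefSeq start site, since serum-response genes are often controlled there. RefSeq promoter entries of build GRCm38.p6 were matched for 9 of the 10 members, all but Zfp36l2. Capitals mark matches to the CArG box, the site of serum response factor, and to the Egr site GCGNGGGCG, both searched on each strand.
Zfp36 upstream region, chr7:28379229-28379478, minus strand: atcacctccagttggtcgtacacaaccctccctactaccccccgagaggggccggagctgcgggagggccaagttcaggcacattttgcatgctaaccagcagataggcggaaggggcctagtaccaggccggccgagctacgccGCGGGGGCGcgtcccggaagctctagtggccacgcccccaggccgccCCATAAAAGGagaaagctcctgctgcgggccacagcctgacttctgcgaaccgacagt
Zc3h12a upstream region, chr4:125127882-125128131, minus strand: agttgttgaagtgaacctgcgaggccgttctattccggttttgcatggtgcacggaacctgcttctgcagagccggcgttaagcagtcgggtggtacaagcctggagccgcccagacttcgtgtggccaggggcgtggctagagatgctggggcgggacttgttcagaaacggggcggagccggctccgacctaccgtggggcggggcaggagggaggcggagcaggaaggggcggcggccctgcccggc
Arid5a upstream region, chr1:36307483-36307732, plus strand: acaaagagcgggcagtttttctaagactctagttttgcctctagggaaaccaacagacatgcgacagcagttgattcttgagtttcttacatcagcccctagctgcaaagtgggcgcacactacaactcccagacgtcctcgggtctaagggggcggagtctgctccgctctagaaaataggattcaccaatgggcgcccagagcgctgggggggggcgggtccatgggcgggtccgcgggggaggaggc

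The Zfp36 upstream region held 1 CArG box, from 58 to 49 bases before the start, and 1 Egr site, from 105 to 97 bases before it. Among the 9 members these were the only matches to either motif in this window. Of 32851 promoters, 1.47% held a CArG box and 4.7% an Egr site in the same 250 bases. The AP-1 site TGANTCA was found in Zfp36l1 alone, from 129 to 123 bases before the start, and in 6.75% of all promoters. The cyclic AMP response element TGACGTCA was found in none of the 9 members and in 1.55% of all promoters. The matches in the members did not overlap one another, and a match is a string of letters and not a measured site.

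Each probe reads a stretch of 60 bases, with 1 or 2 probes per member, and 3 of the 14 member probes contain the core motif ATTTA, against 7.71% of all probes. The probe of Zfp36 holds it 2 times and also carries the longer element TTATTTATT, which is present in 0.144% of probes. The hexamer AATAAA, the common poly(A) signal, lies within the probes of Zc3h12a and Arid5a and in 10.1% of all probes. The stretches with these motifs are shown from the deposited probe sequences in the mouse build mm9, read along the gene's own strand, with capitals for TTATTTATT in Zfp36, for ATTTA in Zc3h12a and Khsrp and for AATAAA in Arid5a. No gene model of that build was used here, so exons and untranslated regions are not assigned.
Zfp36 probe, chr7:29161970-29161999, minus strand: ttatgacgactTTATTTATTgtattaagat
Zc3h12a probe, chr4:124795900-124795929, minus strand: aggcgagATTTAaatattttaaatgaaaaa
Khsrp probe, chr17:57161003-57161032, minus strand: agcaagaATTTAacctctgccccgcccccc
Arid5a probe, chr1:36377332-36377361, plus strand: catgaaagacccAATAAAaagacactggtg

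Arrays differed in brightness, with a 75th percentile of 350.5 to 802.2 in processed signal, and detected 51.1 to 57.1% of probes well above background. Correlations across probes were 0.992 to 0.995 within groups and 0.965 to 0.976 between cordycepin plus serum and the rest. All 8 fibroblast markers examined (Col1a1, Col1a2, Col3a1, Vim, Fn1, Thy1, Pdgfrb and S100a4) were above background on all 8 arrays and none was called in any comparison. Among 8 markers of other cell types, Cdh1, Krt5 and Cdh5 were above background on 0 arrays, Epcam on 1, Ptprc on 3, Des on 7, and Pecam1 and Cd68 on 8. The summed log2 level of these 8 markers was 2.74 to 3.11 with cordycepin plus serum, 0.02 to 0.48 with serum and 0.06 to 0.56 without serum. Cd68, a macrophage marker, rose with cordycepin by 3.04 ± 0.21 (SE) log2 units (limma, adjusted p 5.17e-05), and its part in the results below was not tested. Its mean level was 2.94 with cordycepin plus serum and −0.10 with serum, so the sum largely followed this 1 gene. Of the 3 markers of other cell types that were tested, Pecam1 (−0.37 ± 0.12) and Des (0.44 ± 0.17) were not called with cordycepin.

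Levels are given as the log2 of the processed signal minus that array's own 75th percentile, so that 0 marks a spot brighter than 75% of the others. Differences are log2 fold changes with the standard error from limma fitted on all 30859 tested probes and all 8 arrays. A probe was called lower or higher when its log2 fold change reached 1 in either direction with a Benjamini-Hochberg adjusted p below 0.05. Each gene is described by its brightest probe, with any other probe beside it. Levels of different probes are not set against each other, except that the Tia1 readings are subtracted within each array to compare groups. The measurement is of RNA in whole cultures, in which fewer cells with a transcript and less transcript per cell cannot be told apart.

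Serum raised 3 of the 10 members, Zfp36, Zc3h12a and Arid5a, and lowered 0 by limma, with 0 lower also at an unadjusted p under 0.05. The share of all tested probes called higher with serum was 0.849%, and the share called lower was 0.878%. Cordycepin lowered 4 of the 10 members relative to serum alone: Arid5a, Zfp36, Zc3h12a and Zfp36l2. By probe, 4 of 14 were called lower and 1, the downstream probe of Tia1, was called higher, where 2.87% of all tested probes were called lower and 7.63% higher. Relative to cells without serum, the cordycepin plus serum arrays had Arid5a and Zfp36l2 lower and Zfp36 higher, beside 2.99% of all probes called lower and 6.48% called higher. These 3 comparisons share arrays and are not independent of one another. The members were chosen with earlier results of these data known, so their counts beside the all-probe shares describe them and are not a test. Over the 10 genes the median log2 fold change was −0.75 with cordycepin, 0.17 with serum and −0.10 in the third comparison, while over all tested probes the medians were 0.099, −0.0172 and 0.0842.

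**Figure D1:**
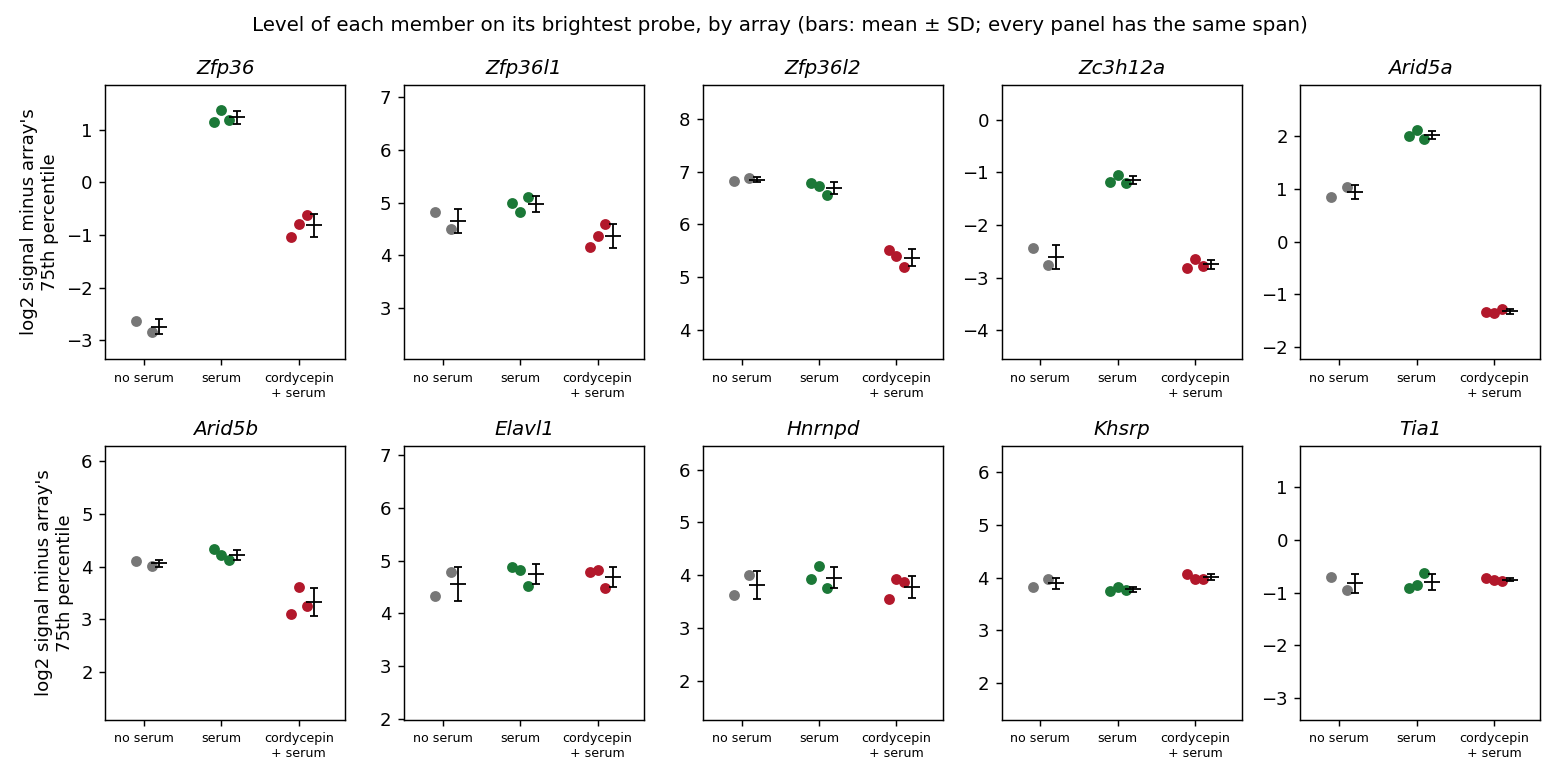
Level of each of the 10 members on its brightest probe. The vertical axis is the log2 signal minus the array's 75th percentile, each point is 1 array (2 without serum, 3 with serum, 3 with cordycepin plus serum) and bars are the mean ± SD. Zfp36, Zc3h12a and Arid5a are high on the 3 serum arrays, Zfp36l2 is low on the 3 cordycepin plus serum arrays, and Elavl1, Hnrnpd and Tia1 overlap between those groups.

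Zfp36 was the member that changed most with serum. Its level was −2.63 and −2.84 on the arrays without serum, 1.15, 1.38 and 1.18 on the serum arrays, and −1.04, −0.79 and −0.62 on the cordycepin plus serum arrays (probe at chromosome 7, 29161940 to 29161999, minus strand). The 3 groups did not overlap, and every cordycepin plus serum array lay between the arrays without serum and those with serum. Serum raised Zfp36 by 3.97 ± 0.16 (SE), a 15.7-fold change (adjusted p 3.12e-05), and by 3.24 ± 0.14 with normexp background correction. With cordycepin the level after serum fell by 2.05 ± 0.14 relative to serum alone, a 4.15-fold difference with a 95% interval from 3.31 to 5.19-fold (adjusted p 4.77e-05). The cordycepin plus serum arrays were still 1.92 ± 0.16, or 3.79-fold, above those without serum (adjusted p 0.000163). When arrays were centred on spike-in probes that last call was lost (1.53 ± 0.57, adjusted p 0.122).

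Zfp36l2, a relative of Zfp36 that also promotes decay, showed another order. Its level was 6.82 and 6.88 without serum, 6.79, 6.73 and 6.56 with serum, and 5.51, 5.40 and 5.2 with cordycepin plus serum (chromosome 17, 84583415 to 84583474). All 3 cordycepin plus serum arrays were lower than any of the other 5. With cordycepin Zfp36l2 fell by 1.33 ± 0.12 relative to serum, or 2.51-fold (adjusted p 0.000163), and against no serum the log2 fold change was −1.48 ± 0.14, a 2.79-fold drop (adjusted p 0.000267). Between serum and no serum the difference was −0.16 ± 0.14 with a 95% interval from −0.47 to 0.16 (adjusted p 0.972). Under centring on spike-in probes the cordycepin difference was −1.38 ± 0.51 and was not called (adjusted p 0.0934).

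Zfp36l1, the other relative, was read at 4.82 and 4.50 without serum, 4.99, 4.82 and 5.11 with serum, and 4.15, 4.37 and 4.60 with cordycepin plus serum (chromosome 12, 81209022 to 81209081). The serum and cordycepin plus serum arrays did not overlap, whereas both overlapped the arrays without serum. The cordycepin difference of −0.60 ± 0.16 had an adjusted p of 0.0299 and was under the minimum fold, so Zfp36l1 was not called. Its values against no serum were 0.31 ± 0.17 for serum (adjusted p 0.715) and −0.29 ± 0.17 for cordycepin plus serum (adjusted p 0.328). In the family of 3, the arrays thus held a member that rose with serum and fell with cordycepin, one that fell with cordycepin without a called change in serum, and one with no call.

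Zc3h12a encodes an endonuclease that degrades inflammatory mRNAs. Its level was −2.44 and −2.76 without serum, −1.18, −1.06 and −1.21 with serum, and −2.81, −2.65 and −2.77 with cordycepin plus serum (chromosome 4, 124795870 to 124795929). The serum arrays stood above all others, and the cordycepin plus serum arrays overlapped those without serum. The rise with serum was 1.45 ± 0.13, or 2.72-fold (adjusted p 0.00167), and with cordycepin Zc3h12a fell by 1.59 ± 0.12, or 3.01-fold (adjusted p 6.92e-05). With normexp background correction the rise was 1.08 ± 0.12 and the cordycepin difference −1.02 ± 0.11, both called but close to the minimum fold. Against no serum the cordycepin plus serum arrays differed by −0.15 ± 0.13, with an interval from −0.45 to 0.16 (adjusted p 0.525). The serum call was lost with centring on spike-in probes, where the rise was 1.11 ± 0.57 (adjusted p 0.856).

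Arid5a, which binds and stabilises inflammatory mRNAs, had the largest cordycepin difference of the 14 probes. It was read at 0.84 and 1.03 without serum, 2.00, 2.11 and 1.95 with serum, and −1.34, −1.35 and −1.27 with cordycepin plus serum (chromosome 1, 36377312 to 36377371, plus strand). The groups did not overlap, and here the cordycepin plus serum arrays lay below the starved cells. Relative to serum, Arid5a fell by 3.34 ± 0.10 with cordycepin, a 10.1-fold drop with a 95% interval from 8.57 to 12-fold (adjusted p 6.23e-06). Against no serum the log2 fold change was −2.25 ± 0.12, or 4.77-fold lower (adjusted p 3.3e-05). The rise with serum was 1.09 ± 0.12, or 2.12-fold (adjusted p 0.00337), close to the minimum for a call. It was 1.00 ± 0.15 without no serum replicate 1 (adjusted p 0.0364) and 0.75 ± 0.57 under spike-in centring (adjusted p 0.856), and was called in neither.

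Arid5b, a DNA-binding protein of the same ARID family, was measured by a pair of probes 2679 bases apart. On the brighter, downstream probe (chromosome 10, 67555669 to 67555728) the level was 4.11 and 4.02 without serum, 4.33, 4.22 and 4.13 with serum, and 3.11, 3.62 and 3.25 with cordycepin plus serum. All 3 cordycepin plus serum arrays were below the other 5. The difference from serum was −0.90 ± 0.15 (adjusted p 0.00327) and that from no serum −0.74 ± 0.16 (adjusted p 0.0187), both under the minimum fold. Without cordycepin plus serum replicate 2, the array nearest the other groups, the difference from serum was −1.04 ± 0.12 and was called (adjusted p 0.00173). The dim upstream probe differed by −0.40 ± 0.31 (adjusted p 0.41), with serum replicate 2 at −3.10 and the other 7 arrays between −4.42 and −4.03, and without that array its difference was 0 ± 0.15.

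**Figure D2:**
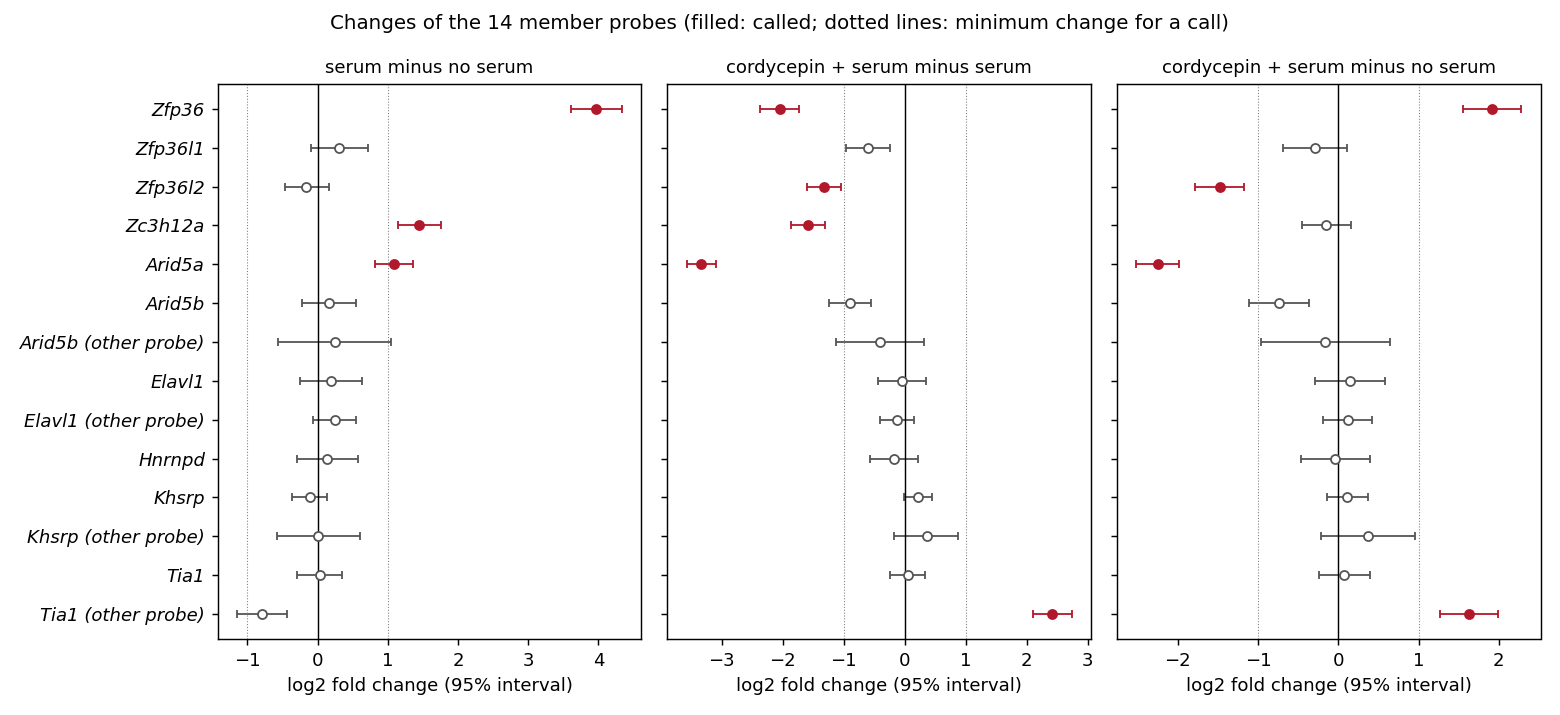
Log2 fold changes of the 14 member probes in the 3 comparisons, with 95% intervals from limma. Filled points were called, dotted lines mark the minimum log2 fold change of 1 in size, and each panel has its own horizontal range. Zfp36 stands apart in the serum panel at 3.97 and Arid5a in the cordycepin panel at −3.34, while the downstream probe of Tia1 is the single probe above the line there, at 2.42.

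The remaining binding proteins, which act on AU-rich mRNAs in opposite ways, were not called in any comparison on their brightest probes. Elavl1, the stabilising protein HuR, was at 4.33 and 4.78 without serum, 4.88, 4.82 and 4.53 with serum, and 4.79, 4.83 and 4.48 with cordycepin plus serum (chromosome 8, 4288411 to 4288470). The groups overlapped throughout, and the cordycepin difference was −0.04 ± 0.17 with an interval from −0.43 to 0.35 (adjusted p 0.882). A further Elavl1 probe, 2897 bases downstream, differed by −0.13 ± 0.12 (adjusted p 0.496).

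Hnrnpd, which encodes the AUF1 isoforms, was at 3.63 and 4 without serum, 3.93, 4.17 and 3.76 with serum, and 3.54, 3.93 and 3.86 with cordycepin plus serum (chromosome 5, 100390181 to 100390240). Its groups overlapped as well, and the cordycepin difference of −0.18 ± 0.17 had an interval from −0.57 to 0.21 (adjusted p 0.49). Khsrp, which recruits decay enzymes, was at 3.82 and 3.97 without serum, 3.75, 3.83 and 3.76 with serum, and 4.07, 3.97 and 3.97 with cordycepin plus serum (chromosome 17, 57160973 to 57161032). The cordycepin plus serum arrays all lay above the serum arrays, but the difference was small, 0.22 ± 0.10 with an interval from −0.01 to 0.45 (adjusted p 0.166). The other Khsrp probe, 1308 bases upstream, differed by 0.36 ± 0.23 (adjusted p 0.322). With arrays scaled by their 75th percentile, the intervals of these 3 genes' brightest probes exclude a doubling and a halving. That is a bound on the change under this scaling only, and not evidence of an equal level.

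Tia1, the translational silencer that also builds stress granules, gave different readings on its probes. On the brighter, upstream probe (chromosome 6, 86381136 to 86381195, plus strand) the level was −0.70 and −0.95 without serum, −0.91, −0.86 and −0.62 with serum, and −0.73, −0.75 and −0.77 with cordycepin plus serum. These groups overlapped, and the cordycepin difference was 0.05 ± 0.12 with an interval from −0.24 to 0.33 (adjusted p 0.829).

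The downstream Tia1 probe begins 1937 bases further on (86383073 to 86383132) and is assigned by the array design to the same RefSeq mRNA. It was read at −2.05 and −2.27 without serum, −2.90, −2.78 and −3.17 with serum, and −0.48, −0.44 and −0.68 with cordycepin plus serum. Here the groups did not overlap, with the serum arrays lowest and the cordycepin plus serum arrays highest. Cordycepin raised the reading by 2.42 ± 0.14, or 5.35-fold (adjusted p 2.25e-05), or 1.76 ± 0.12 with normexp background correction, and it was 1.63 ± 0.16, or 3.09-fold, above no serum (adjusted p 0.000324). The call against no serum was lost with centring on spike-in probes (1.24 ± 0.57, adjusted p 0.329). Between serum and no serum the difference of −0.79 ± 0.16 had an adjusted p of 0.046 and was under the minimum fold.

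Within each array, the downstream reading of Tia1 minus the upstream reading was 0.21 ± 0.12 (SD, n = 3) with cordycepin plus serum, −2.16 ± 0.34 (SD, n = 3) with serum and −1.34 ± 0.02 (SD, n = 2) without serum. The cordycepin plus serum and serum values differed by 2.37 (two-sided exact permutation test, p = 0.1, the smallest p that 3 arrays against 3 allow). This was computed for Tia1 alone among the members with a pair of probes. The downstream readings of these groups were already fully apart, so the p adds no support to them. Since both readings come from the same array, the difference of 2.37 does not depend on how the arrays were scaled to each other by a constant. A probe named only by a transcript identifier, 5916 bases upstream of the nearer Tia1 probe, differed by −0.49 ± 0.44 with cordycepin (adjusted p 0.481). That probe was dim, with levels from −7.12 to −4.75, so its value is a weak contrast for the Tia1 probes. When the probes of each gene were averaged, Tia1 was called higher with cordycepin (1.23 ± 0.10, adjusted p 0.000105), so the count of members called higher was 1 by that rule and 0 by the brightest probe.

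**Figure D3:**
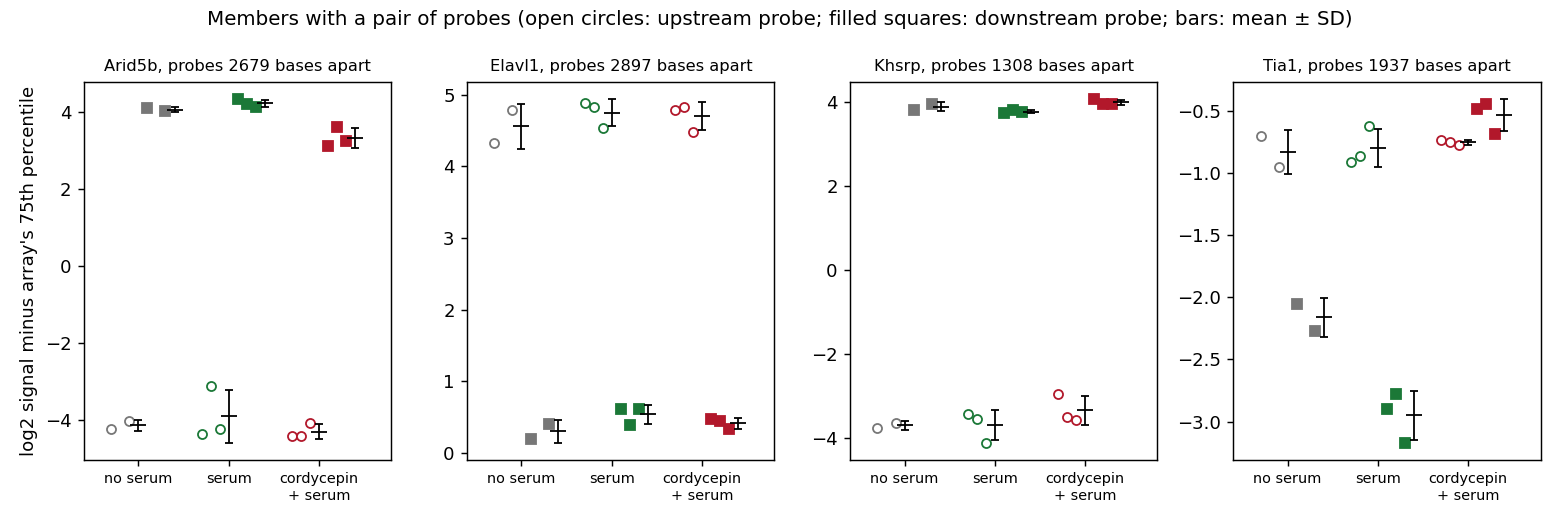
The 4 members with a pair of probes, with the upstream probe as open circles and the downstream probe as filled squares. The vertical axis is the log2 signal minus the array's 75th percentile, each symbol is 1 array and bars are the mean ± SD, and only the pattern across groups is to be compared between probes. In Arid5b, Elavl1 and Khsrp neither probe was called, while in Tia1 the upstream probe stays between −0.95 and −0.62 and the downstream probe moves from about −2.95 with serum to −0.53 with cordycepin plus serum.

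The 3 members raised by serum thus had different orders. Zfp36 was lowest without serum, and lay above starved cells by 3.97 log2 units with serum and by 1.92 with cordycepin plus serum, the latter not called under spike-in centring. With cordycepin, Zc3h12a differed from starved cells by −0.15 log2 units, with an interval from −0.45 to 0.16, and Arid5a was 4.77-fold below them. Over the 8 arrays, which hold only 3 conditions, the Pearson correlation was 0.836 between Zfp36 and Zc3h12a, 0.837 between Arid5a and Zc3h12a, and 0.42 between Zfp36 and Arid5a.

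Other mRNAs that most resembled each of these patterns were ranked by Pearson correlation over the 8 arrays among 12539 genes, as a description. These were RefSeq mRNAs well above background on all 8 arrays, each on its brightest such probe, with members left out. Genes at background on any array could thus not be named. Nearest to Zfp36 were Junb (0.995), Arc (0.989), Ier2 (0.987), Dnajb1 (0.983) and Gadd45g (0.978). Junb and Ier2 are immediate early genes, and Junb differed by 2.64 with serum and −1.46 with cordycepin. Nearest to Zc3h12a were Fbxo30 (0.997), Phlda1 (0.994), Csrnp1 (0.993), Dusp2 (0.992) and F3 (0.988). Dusp2, a phosphatase of MAP kinases, differed by 2.34 with serum and −2.49 with cordycepin. Nearest to Arid5a were 3110001I22Rik (0.997), Tgif1 (0.996), Elf2 (0.995), Smarcad1 (0.995) and Mef2d (0.994), whose log2 fold changes were 0.18 to 0.47 with serum and −1.48 to −0.71 with cordycepin.

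The genes around the members were examined as 4 lists, taking the brightest probe of each gene. Of 29 other AU-rich or related RNA-binding genes, 0 were called lower and 2 higher with cordycepin, with a median log2 fold change of 0, near the 7.63% of all tested probes that were called higher. At an unadjusted p under 0.05 there were 6 lower and 2 higher, where 12.1% of all probes were lower and 19.9% higher, and with quantile scaling Zc3h12b was called lower (−1.10 ± 0.19, adjusted p 0.00578). One of the called genes was Elavl3, a neuronal relative of Elavl1. It was read at −1.27, −1.31 and −2.05 with cordycepin plus serum against −3.79, −3.97 and −4.08 with serum. These arrays did not overlap, and the rise was 2.40 ± 0.24 (adjusted p 0.000239). Against no serum Elavl3 was 3.33 ± 0.26 higher (adjusted p 0.000147), the single call of the list in that comparison, and with serum there was none. The other was Zc3h12d, a relative of Zc3h12a, a dim probe above background on 3 of 3 cordycepin plus serum arrays but on 1 of 3 serum arrays and 1 of 2 without serum, so that it was tested only through the group where it was high. Its difference of 2.23 ± 0.52 (adjusted p 0.0181) rested on serum readings mostly at background and was 0.60 ± 0.13 with normexp background correction, where it was not called. The call was also lost with quantile scaling (adjusted p 0.0579), with no filter on dim probes (adjusted p 0.0538), and without cordycepin plus serum replicate 2 (adjusted p 0.0642), cordycepin plus serum replicate 3 (adjusted p 0.0578) or serum replicate 3 (adjusted p 0.057).

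The decay machinery that the members recruit, 34 genes of the CCR4-NOT, PAN and PARN deadenylases, the decapping complex, Xrn1 and the exosome, had 0 genes called by limma in all 3 comparisons. With cordycepin, 2.87% of all tested probes were called lower and 7.63% higher. At an unadjusted p under 0.05, 5 of these genes were lower and 1 higher with cordycepin and 0 with serum. For cordycepin plus serum relative to no serum, 3 were lower and 3 higher. Of all tested probes at that p, 12.1% were lower and 19.9% higher with cordycepin, and 6.22% and 4.13% with serum. In the third comparison 11% were lower and 16.3% higher. Log2 fold changes in this list ran from −0.76 to 0.38 with cordycepin, with a median of 0.04, and from −0.24 to 0.26 with serum, with a median of 0. Without the minimum fold, 3 of these genes were lower with cordycepin, beside 2271 of all 30859 tested probes. They were Edc3 (−0.76 ± 0.11, adjusted p 0.00214), Exosc3 (−0.64 ± 0.12, adjusted p 0.00578) and Dcp1a (−0.41 ± 0.10, adjusted p 0.0228). Against no serum, Edc3 (−0.65 ± 0.13, adjusted p 0.0102) and Exosc3 (−0.60 ± 0.13, adjusted p 0.0175) were lower by that rule, beside 1837 of all tested probes. Among 16 genes that signal to the decay regulators, such as the p38 kinases and their target Mapkapk2, 0 were called with cordycepin and 1 with serum. At an unadjusted p under 0.05, 3 were lower and 0 higher with cordycepin, beside the all-probe shares given above. With serum, 0.849% of all tested probes were called higher. The gene called with serum was Srf, which encodes the factor of the CArG box and rose by 1.42 ± 0.13 (adjusted p 0.0017). With cordycepin Srf fell by 0.64 ± 0.12 (adjusted p 0.00624), under the minimum fold. Centring on spike-in probes moved the medians of these lists in the serum comparison to −0.33 for the decay machinery and −0.28 for the signalling genes, beside −0.35 for all tested probes, and the call of Srf was lost (1.08 ± 0.57, adjusted p 0.856).

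Short-lived mRNAs that members are known to bind formed the last list, of which 18 of 22 were tested and Cxcl2, Csf2, Tnf and Mmp13 did not pass the filter on dim probes. This list was chosen with earlier results of these data known, so its counts beside the all-probe shares are a description and not a test. Serum raised 10 of the 18 and lowered 0 (13 higher and 0 lower at an unadjusted p under 0.05), where 0.849% of all tested probes were called higher and 4.13% were higher at that unadjusted p. The median was 1.19, led by Fos (4.86 ± 0.29), Ptgs2 (2.96 ± 0.19), Cxcl1 (2.64 ± 0.29) and Dusp1 (2.40 ± 0.23). Their adjusted p-values from limma ran from 0.000209 for Fos to 0.00385 for Cxcl1. The count called higher was 7 to 10 when each array was left out. Without no serum replicate 2 it was 7, with Lif (1.11 ± 0.22, adjusted p 0.0941), Plau (adjusted p 0.0916) and Nfkbiz (adjusted p 0.0737) no longer called. Plau was also lost without serum replicate 1 (adjusted p 0.0779), serum replicate 2 (adjusted p 0.0607) or no serum replicate 1 (adjusted p 0.199). The count was 7 as well with no filter on dim probes and with only the 2 groups fitted. Cordycepin lowered 8 of the 18 and raised 0 (13 lower and 0 higher at an unadjusted p under 0.05), with a median of −0.76, where 2.87% of all tested probes were called lower and 12.1% were lower at that unadjusted p. The largest drops were those of Ptgs2, the prostaglandin synthase (−2.73 ± 0.17, adjusted p 3.13e-05), Dusp1, a MAP kinase phosphatase (−2.44 ± 0.20, adjusted p 0.000103), Myc (−2.27 ± 0.27, adjusted p 0.000585) and Plk3 (−2.12 ± 0.18, adjusted p 9.9e-05). The call of Plau was lost without cordycepin plus serum replicate 3 or serum replicate 2, with differences of −0.98 and −0.95, and that of Mcl1 without cordycepin plus serum replicate 3 or serum replicate 1, with −0.93 and −0.95. With centring on spike-in probes 4 genes were called with serum and 5 with cordycepin.

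Against no serum, the cordycepin plus serum arrays had 4 of these 18 mRNAs higher and 1 lower, with a median of 0.06, where 6.48% of all tested probes were called higher and 2.99% lower. With centring on spike-in probes 2 were higher and 1 lower with a median of −0.33, and the call of Ier3 was lost (0.97 ± 0.57, adjusted p 0.647). Fos (3.23 ± 0.29, adjusted p 0.000229), Cxcl1, a chemokine (2.51 ± 0.29, adjusted p 0.00084) and Ier3 (1.36 ± 0.13, adjusted p 0.000319) were higher, like Zfp36, and Myc was lower (−1.43 ± 0.30, adjusted p 0.014), like Arid5a. Fos was, like Zfp36, also called higher with serum (4.86 ± 0.29) and lower with cordycepin relative to serum (−1.62 ± 0.26). Myc was, like Arid5a, also called lower relative to serum (−2.27 ± 0.27). The other likenesses did not hold in every comparison. Relative to serum, Cxcl1 (−0.13 ± 0.26, adjusted p 0.777) and Ier3 (−0.75 ± 0.12, adjusted p 0.00253) were not called, unlike Zfp36. The serum difference of Myc (0.84 ± 0.30, adjusted p 0.319) was not called, unlike that of Arid5a. The call of Myc was lost without no serum replicate 1 (adjusted p 0.0717) and without no serum replicate 2 (adjusted p 0.0844). Nfkbiz was higher by 1.07 ± 0.25 (adjusted p 0.022). This call was lost without cordycepin plus serum replicate 1 (1.10 ± 0.29, adjusted p 0.0548) and without cordycepin plus serum replicate 3 (0.98 ± 0.28, adjusted p 0.0649). Without no serum replicate 2 the difference was 0.65, under the minimum fold. The call was also lost with normexp background correction (0.88 ± 0.18), centring on spike-in probes (0.68 ± 0.57), no filter on dim probes (adjusted p 0.0718) and the replicate block (0.96 ± 0.23).

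**Figure D4:**
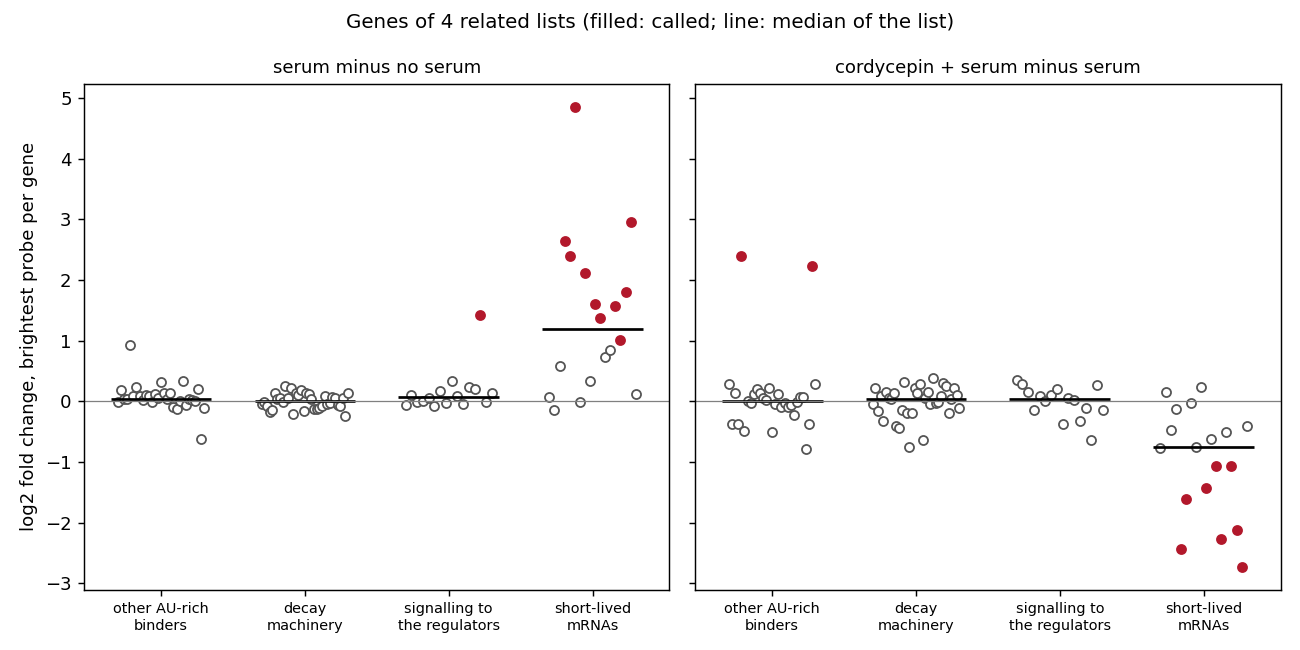
Log2 fold changes of the tested genes of 4 related lists with serum and with cordycepin, 1 point per gene on its brightest probe. Filled points were called and lines are the list medians. Calls fall mostly among the short-lived mRNAs, with medians of 1.19 for serum and −0.76 for cordycepin, and the 34 genes of the decay machinery hold 0 calls.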

How the data were processed

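RNA of 8 samples was hybridised to 1-colour Agilent arrays. Per the file headers, the authors extracted intensity values for each spot with Agilent Feature Extraction 10.7.3.1, which subtracts background and removes spatial trends to give a processed signal on a linear scale. Probe positions are those of build mm9. With 1 slide and 1 scan for all arrays, neither was a batch that could be tested. The number of arrays limits the precision.

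From the deposited intensity values, log2 was taken here and scaled by subtracting each array's 75th percentile over its 59305 non-control spots. Spots that the software marked as outliers were dropped and spots of a probe were averaged. Tested probes, 30859 of 55681, were those marked well above background throughout 1 or more groups. Group differences were estimated with limma 3.58.1 (R 4.3.3) from 1 mean per group and no covariate, two-sided, with Benjamini-Hochberg adjustment. This fit was tested on simulated data. Changes are relative to each array's own distribution, so one shared by most transcripts would not appear.

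Named were all members, up to 4 called genes with the largest change per list and comparison, and the 5 genes most correlated with Zfp36, Arid5a and Zc3h12a. Also named were genes of the short-lived list, Zc3h12b, Edc3, Exosc3 and Dcp1a, whose call changed with 1 array or setting (picked after their values were seen). Members and lists were chosen with earlier results of these data known, and the motifs other than the CArG box after the sequences were seen. Alternatives covered background correction, scaling, filters, probe choice, blocks and leaving out each array. The alternative percentile over 1 spot per probe was added after the data were seen. Symbols were matched to RefSeq (GRCm38.p6). Figures were drawn with matplotlib 3.10.9.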

Additional observations from a re-analysis of the deposited data

How the results depend on the processing

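Of 219 repeats of called member values under other settings, 213 kept direction and call, 6 were no longer called and 0 reversed. The losses were the Arid5a serum rise without no serum replicate 1 and 5 calls under centring on spike-in probes, where standard errors grew to 0.51 to 0.57 and all-probe medians moved to −0.35 (serum) and −0.31 (cordycepin plus serum against no serum). That centring left 1 member called higher with serum in place of 3, and 0 in place of 1 against no serum. Averaging a gene's probes gave 1 member called higher with cordycepin in place of 0. Without the minimum fold, cordycepin lowered 6 members. Leaving out each array gave 4 to 5 members lower and 0 to 0 higher with cordycepin, 0 to 0 lower and 2 to 3 higher with serum, and 2 to 2 lower and 1 to 1 higher against no serum. With 1 array left without serum, that array is assumed to vary like the other groups.

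Correlations of same-numbered deviations were −0.17 to 0.23, but groups of 2 or 3 arrays are too small to show whether replicate numbers pair the samples. The replicate block left the counts at 4, 3, 2 and 1.

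Over all probes, cordycepin gave 886 lower and 2356 higher calls, against 402 and 919 with normexp, 1285 and 1949 with quantile scaling, and 428 and 1577 with spike-in centring. Serum gave 271 lower and 262 higher, against 59 and 171 with normexp, 155 and 54 with spike-in centring, 88 and 133 without the filter on dim probes, 127 and 162 without no serum replicate 1, and 129 and 136 without no serum replicate 2. Fitting only the 2 groups gave 149 lower, and probes above background on all 8 arrays 142 lower. The comparison of cordycepin plus serum with no serum gave 923 and 1999, against 338 and 1063 with normexp, 1237 and 1735 with quantile scaling, and 611 and 829 with spike-in centring. Probes above background on all 8 arrays gave 1117 higher with cordycepin and 1022 higher against no serum. Without the minimum fold, 2271 were lower and 3704 higher with cordycepin and 1837 lower against no serum, and at an unadjusted p with the minimum fold 611 were lower with serum. Averaging the probes of a gene gave 545 and 1416 with cordycepin, 163 lower with serum, and 576 and 1248 against no serum, over fewer features. The other causes were not tested.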
